A study of Mus musculus with 24 samples.

Results

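De novo lipogenesis is the pathway by which liver builds fatty acids from carbohydrate. It was followed here through 10 genes chosen by name: Mlxipl, Acly, Acaca, Acacb, Fasn, Me1, Thrsp, Scd1, Elovl6 and Gpam. Each was found once among the 54432 genes of the deposited expression table. The table holds polyadenylated RNA of whole liver from 24 male C57BL/6 mice, 6 per group, injected with an adeno-associated virus encoding Cre recombinase at 20 to 21 weeks of age. Livers were taken 4 weeks later, after a 4 h fast on chow. All 4 groups received the Cre virus. They were wild type (WT), Trib1 flox/flox (labelled Trib1-KO), Cebpa flox/flox (labelled Cebpa-KO) and Trib1 flox/flox with Cebpa flox/flox (labelled DKO). TRIB1 is a pseudokinase that directs the transcription factor C/EBPα to degradation, and Cebpa encodes that factor. The labels name no promoter for Cre, and whole liver also holds cells that the virus may not have reached. In such bulk samples, fewer cells of a type and less RNA per cell cannot be told apart. Mice were injected in 2 cohorts of 3 per group, but no label ties the table's columns to cohorts. Each group's 6 columns carry 2 letters with 3 libraries each, and no label says whether a letter marks a cohort. If first and second letters are taken as sets, the 6 members called in Trib1-KO against WT differed by 0.61 to 1.24 (log2) among first letters and by 0.75 to 1.56 among second letters. With the letter as a term in the fit, no call of a member changed.

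All levels below are size-factor-normalized counts, whose totals ran from 23385895 to 27190701 per library. Each p-value is from limma on log2(value + 1), adjusted by Benjamini-Hochberg over the 19810 genes tested, and a gene is called below 0.05. Cebpa was 6019 ± 1057 (SD, n = 6) in WT, 82.2 ± 17.5 in Cebpa-KO and 82.4 ± 18.1 in DKO. It was 2668 ± 359 in the libraries labelled Trib1-KO. Trib1 was 1224 ± 204 in WT, 333 ± 158 in Cebpa-KO and 732 ± 259 in DKO, but 4237 ± 358 in the libraries labelled Trib1-KO. The Trib1 total of those 6 libraries thus went against their label. Below, Trib1-KO names these libraries by their label. Trib1 was also higher in DKO than in Cebpa-KO (log2 1.13 ± 0.24, limma adjusted p = 0.046), with overlapping ranges, so the contrast of those groups carries the same doubt. A gene-level value does not show whether the floxed exons are still transcribed. Major urinary protein (Mup) genes took between 1.28% and 26.7% of a library, with 21.0% to 26.7% in the libraries labelled Trib1-KO. Rescaling to totals without Mup genes moved the all-gene median log2 difference of Trib1-KO against WT to 0.24. The share of calls that were higher was then 83.9%, against 51.8% as deposited. The share moved from 48.3% to 18.7% for DKO against Trib1-KO and from 50.5% to 17.9% for the interaction. It moved from 46.9% to 35.9% for Cebpa-KO against WT and from 46.7% to 36.1% for DKO against WT.

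In lipogenesis, citrate leaves the mitochondrion and ATP citrate lyase (Acly) splits it to give cytosolic acetyl-CoA. The acetyl-CoA carboxylases (Acaca, Acacb) make malonyl-CoA, and fatty acid synthase (Fasn) builds palmitate with NADPH that malic enzyme (Me1) helps supply. Elovl6 lengthens palmitate, Scd1 introduces the first double bond, and Gpam adds the acyl chain to glycerol phosphate, the entry to triglyceride. In liver the genes are known to answer to ChREBP, the glucose-sensing factor encoded by Mlxipl, and to SREBP-1, the insulin-responsive factor encoded by Srebf1. Thrsp (Spot 14) is a small nuclear and cytosolic protein that rises with lipogenesis and pairs with its paralog Mid1ip1, an activator of acetyl-CoA carboxylase.

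Promoter sequence from RefSeq (GRCm38.p6) matched 9 of the 10 genes, all but Scd1. The 3 windows below are the 250 bases before a RefSeq start, 5′ to 3′ on the gene's strand. They are shown because Mlxipl encodes the pathway's glucose-sensing factor, Fasn was the one member called lower in both Cebpa-deleted groups against WT, and Acly was not called in any comparison of the deposited values. Capitals mark matches to the NF-Y box (CCAAT, or ATTGG on the other strand) and to the E-box CACGTG. 
Mlxipl, chr5:135089640-135089889, plus strand: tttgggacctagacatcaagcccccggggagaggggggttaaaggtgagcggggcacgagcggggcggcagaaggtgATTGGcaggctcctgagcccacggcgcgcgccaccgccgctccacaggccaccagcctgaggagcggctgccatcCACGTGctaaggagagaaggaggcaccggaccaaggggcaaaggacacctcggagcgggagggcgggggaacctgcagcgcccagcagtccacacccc
Fasn, chr11:120824548-120824797, minus strand: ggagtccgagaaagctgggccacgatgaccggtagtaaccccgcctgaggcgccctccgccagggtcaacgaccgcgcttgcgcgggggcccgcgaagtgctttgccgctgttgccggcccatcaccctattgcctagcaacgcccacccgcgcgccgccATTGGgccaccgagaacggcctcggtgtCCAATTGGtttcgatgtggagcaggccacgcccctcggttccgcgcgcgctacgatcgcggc
Acly, chr11:100528001-100528250, minus strand: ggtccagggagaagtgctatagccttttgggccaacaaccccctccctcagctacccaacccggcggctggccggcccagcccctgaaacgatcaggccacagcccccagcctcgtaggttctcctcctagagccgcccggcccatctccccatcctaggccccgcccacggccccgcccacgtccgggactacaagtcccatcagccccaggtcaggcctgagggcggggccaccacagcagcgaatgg
The Fasn window holds 3 NF-Y matches, at bases -90 to -86, -62 to -58 and -59 to -55 counted back from the start, the last pair overlapping. The Mlxipl window holds 1 NF-Y match at -173 to -169 and the E-box at -98 to -93. The Acly window holds none of the motifs searched. GC content was 69.2% in the Mlxipl and Fasn windows and 68.8% in that of Acly.

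5 motifs were searched on both strands in 1 window of 250 bases per gene, over 27025 promoters. The NF-Y box was in 34.5% of all promoters and in 4 of the 9 members' windows. The SREBP element CACNCCAC was in 5.16% and in 2 of 9, and the TATA box TATAAA in 13.0% and in 1 of 9. The E-box CACGTG was in 6.05% and the C/EBP element TTGCNNAA in 9.55% of promoters, and each was in 0 of the 9 windows counted. The counted Mlxipl window belongs to a start further downstream than the printed window. Those of Acaca and Acacb begin at 84195188 and 114165268, inside genes annotated from 84129672 and 114146535. A match is a description of letters and says nothing of binding.

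Mlxipl (chromosome 5, 135089890 to 135138382, plus strand, 17 exons in its longest coding transcript; GENCODE M21, GRCm38) was highest in the libraries labelled Trib1-KO. Its lowest, median and highest levels were 5838, 7587 and 8827 in WT and 7693, 8490 and 9414 in the libraries labelled Trib1-KO. They were 5007, 5970 and 7502 in Cebpa-KO and 4833, 5555 and 6961 in DKO. The libraries labelled Trib1-KO lay wholly above those of both Cebpa-deleted groups, and every other pair of groups overlapped. The log2 difference from WT was 0.20 ± 0.11 (SE) in Trib1-KO (limma adjusted p = 0.20), but it was called with totals free of Mup genes (0.44, limma adjusted p = 0.0060) and with quantile normalization (0.39, limma adjusted p = 0.010). It was -0.27 ± 0.11 in Cebpa-KO (limma adjusted p = 0.11) and -0.37 ± 0.11 in DKO (limma adjusted p = 0.033), a call that 11 of 22 alternatives lost.

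Acly (chromosome 11, 100476353 to 100528000, minus strand, 29 exons), which supplies the acetyl-CoA, was not called in any of the 6 comparisons of the values as deposited. It ran from 4347 to 5749 in WT with a median of 5123, and from 3234 to 8489 in the libraries labelled Trib1-KO with a median of 4363. It ran from 3721 to 5852 (median 4774) in Cebpa-KO and from 3533 to 4814 (median 4310) in DKO. All 4 ranges overlapped. The log2 difference from WT was -0.16 ± 0.16 in Trib1-KO (limma adjusted p = 0.54), where 5 of 6 libraries were below the WT mean and D3 was the highest of all 24. Without D3 it was -0.34 (limma adjusted p = 0.035), and with totals free of Mup genes it was 0.09. With those totals Acly was called lower in DKO against Trib1-KO (-0.40, limma adjusted p = 0.041). Acly thus had no direction that held across scalings.

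The carboxylase genes parted from each other. Acaca (chromosome 11, 84129672 to 84401651, plus strand, 56 exons) encodes the cytosolic enzyme that commits acetyl-CoA to fatty acids. Its lowest, median and highest levels were 1751, 2470 and 2749 in WT and 3352, 4386 and 9122 in the libraries labelled Trib1-KO, with no overlap. They were 2099, 2963 and 3416 in Cebpa-KO and 2073, 2391 and 3066 in DKO, both overlapping WT. Acaca was 2.06-fold higher in Trib1-KO than in WT (log2 1.04 ± 0.17, limma adjusted p = 5.8e-05). It was not called in Cebpa-KO (0.27 ± 0.17, adjusted p = 0.40) or DKO (0.04 ± 0.17, limma adjusted p = 0.94) against WT.

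Acacb (chromosome 5, 114146535 to 114250761, plus strand, 53 exons) encodes the carboxylase at the mitochondrial surface, whose malonyl-CoA restrains fatty acid oxidation. It ran from 1085 to 2515 in WT with a median of 2032, and from 1698 to 3216 in the libraries labelled Trib1-KO with a median of 2586. It ran from 1843 to 2772 (median 2333) in Cebpa-KO and from 1331 to 1903 (median 1496) in DKO. The Trib1-KO and WT ranges overlapped widely, while 5 of 6 libraries labelled Trib1-KO were above the WT mean. The difference was 0.35 ± 0.16 (limma adjusted p = 0.13), and it was called with totals free of Mup genes (0.60, limma adjusted p = 0.0084) and without library D2 (0.46, limma adjusted p = 0.044). Against WT, DKO was at -0.31 (limma adjusted p = 0.34), or -0.47 without the WT library B3 (limma adjusted p = 0.041).

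Fasn (chromosome 11, 120805846 to 120824547, minus strand, 43 exons) rose in the libraries labelled Trib1-KO and fell wherever Cebpa was deleted. Its lowest, median and highest levels were 3954, 8038 and 11393 in WT and 8409, 12277 and 16117 in Trib1-KO. They were 2305, 2953 and 3271 in Cebpa-KO and 2407, 2680 and 3538 in DKO. Every Cebpa-KO and DKO library lay below every WT library, while the Trib1-KO and WT ranges overlapped. Fasn was 1.60-fold higher in Trib1-KO (log2 0.68 ± 0.18, limma adjusted p = 0.0073). It was 2.67-fold lower in Cebpa-KO (-1.41 ± 0.18, limma adjusted p = 6.7e-06) and 2.68-fold lower in DKO (-1.42 ± 0.18, limma adjusted p = 1.2e-05).

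Me1 (chromosome 9, 86581371 to 86695953, minus strand, 14 exons), the cytosolic NADPH-forming malic enzyme, had the largest fold among the members called in Trib1-KO against WT. Its lowest, median and highest levels were 2761, 5490 and 6360 in WT and 8383, 12420 and 21755 in the libraries labelled Trib1-KO. They were 2732, 3789 and 5224 in Cebpa-KO and 1347, 3148 and 3567 in DKO. The Trib1-KO range stood above all others, and the WT and DKO ranges overlapped only through the low WT library B3. Me1 was 2.64-fold higher in Trib1-KO (log2 1.40 ± 0.24, limma adjusted p = 9.2e-05) and was not called in Cebpa-KO (-0.38 ± 0.24, limma adjusted p = 0.39). In DKO it was 1.80-fold lower than in WT (-0.85 ± 0.24, limma adjusted p = 0.034), a call lost in 9 of 22 alternatives, among them leaving out the lowest DKO library H3 (-0.64, limma adjusted p = 0.085).

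Thrsp (chromosome 7, 97412938 to 97417730, minus strand, 2 exons) was the member that varied most among the WT mice, with a coefficient of variation of 62.8%, against 10.0% in DKO. It ran from 811 to 7465 in WT with a median of 3573, and from 4558 to 12464 in the libraries labelled Trib1-KO with a median of 6006. It ran from 2084 to 3072 (median 2710) in Cebpa-KO and from 2191 to 2949 (median 2510) in DKO. Both Cebpa-deleted groups fell inside the WT range, and every library labelled Trib1-KO was above them. Thrsp was 2.30-fold higher in Trib1-KO than in WT (log2 1.20 ± 0.35, limma adjusted p = 0.013). The call was lost in a fit of those groups alone (limma adjusted p = 0.076) and without WT B3 and Trib1-KO D3 together (0.66, limma adjusted p = 0.075).

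Scd1 (chromosome 19, 44394455 to 44407879, minus strand, 6 exons) was the most abundant member by far. Its lowest, median and highest levels were 131129, 168613 and 225167 in WT and 219167, 365730 and 504322 in the libraries labelled Trib1-KO. They were 137424, 171236 and 297634 in Cebpa-KO and 58230, 86402 and 113107 in DKO. Only the lowest Trib1-KO library reached into the WT range, Cebpa-KO overlapped WT, and DKO lay below every other library. Scd1 was 2.03-fold higher in Trib1-KO than in WT (log2 1.02 ± 0.21, limma adjusted p = 6.7e-04), but 0.47 with quantile normalization (limma adjusted p = 0.14). It was not called in Cebpa-KO (0.08 ± 0.21, limma adjusted p = 0.87) and was 2.06-fold lower in DKO than in WT (-1.04 ± 0.21, limma adjusted p = 0.0025). Scd1 has close paralogs, whose highest group means, all in Trib1-KO, were 317 for Scd2, 15.2 for Scd3 and 4.82 for Scd4. How the authors' quantification shared reads among them was not tested.

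Elovl6 (chromosome 3, 129532355 to 129638495, plus strand, 5 exons) followed Acaca and Me1 in Trib1-KO. Its lowest, median and highest levels were 1020, 1611 and 1771 in WT and 2543, 3067 and 5526 in the libraries labelled Trib1-KO. They were 809, 1106 and 1791 in Cebpa-KO and 831, 1055 and 1115 in DKO. The Trib1-KO libraries lay above every other library, and the DKO libraries overlapped WT only through B3. Elovl6 was 2.21-fold higher in Trib1-KO (log2 1.15 ± 0.18, limma adjusted p = 2.9e-05). It was not called in Cebpa-KO (-0.40 ± 0.18, limma adjusted p = 0.18) or DKO (-0.57 ± 0.18, limma adjusted p = 0.061). The DKO value passed in 5 of 22 alternatives. The antisense gene Gm35986 overlaps the first exon of Elovl6, and whether quantification used strand is not given in the sources used here.

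Gpam (chromosome 19, 55067268 to 55127238, minus strand, 22 exons), the mitochondrial acyltransferase at the entry to glycerolipids, was not called in any group against WT. It ran from 5462 to 7094 in WT with a median of 5877, and from 5548 to 10000 in the libraries labelled Trib1-KO with a median of 6363. It ran from 4079 to 5669 (median 5204) in Cebpa-KO and from 4385 to 5847 (median 5050) in DKO. Each range overlapped that of WT. The log2 difference from WT was 0.18 ± 0.11 in Trib1-KO (limma adjusted p = 0.29), -0.26 ± 0.11 in Cebpa-KO (limma adjusted p = 0.17) and -0.25 in DKO (limma adjusted p = 0.26). The Trib1-KO value was called with totals free of Mup genes (0.42, limma adjusted p = 0.0031) and with quantile normalization (0.35, limma adjusted p = 0.017).

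**Figure D1:**
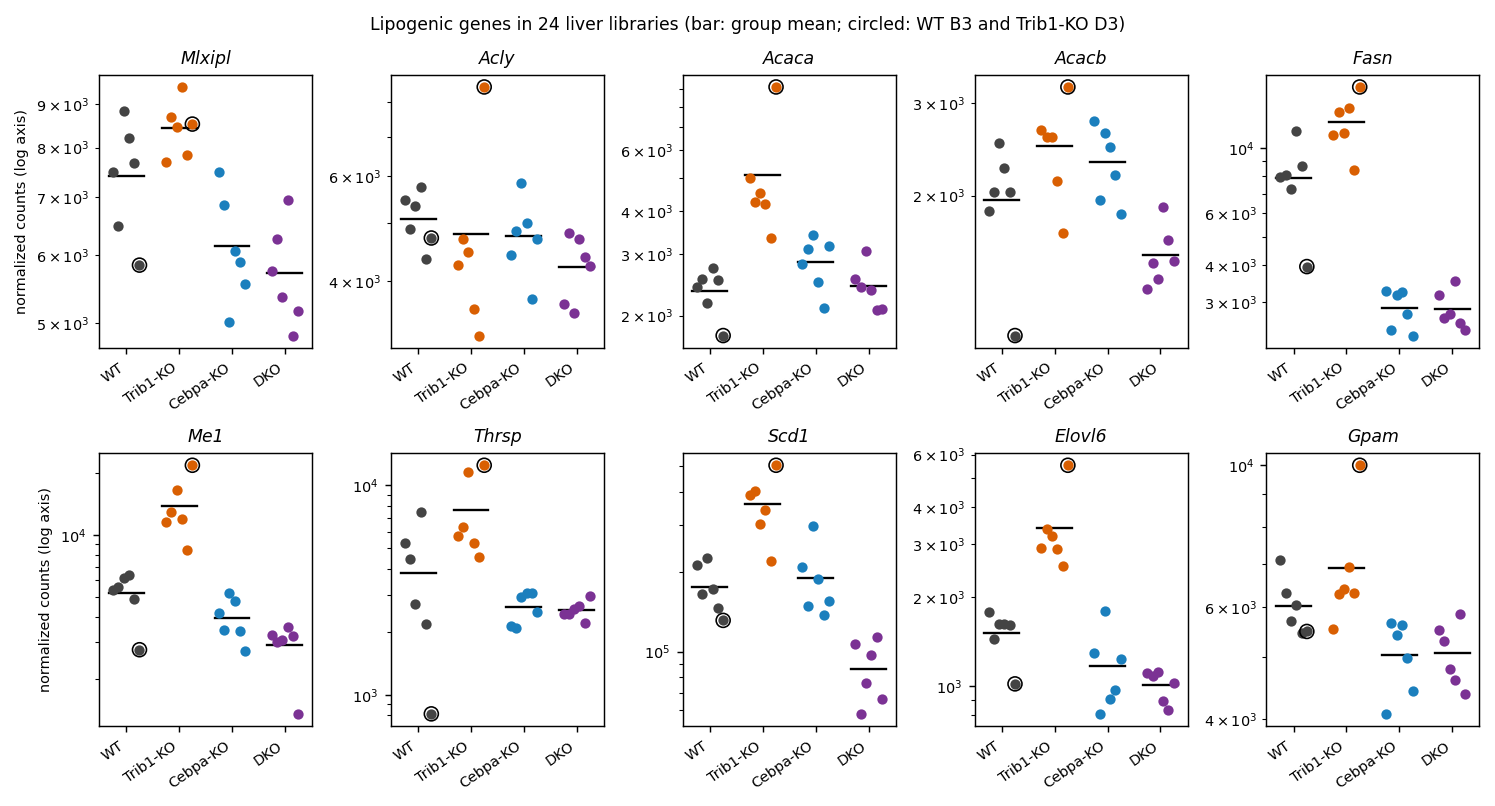
Normalized level of each of the 10 genes in every library (log scale), 1 panel per gene, with the 4 groups side by side, a bar at each group's mean, and circles around WT B3 and Trib1-KO D3. In the libraries labelled Trib1-KO, Acaca, Me1 and Elovl6 stand above all WT points, while Fasn in Cebpa-KO and DKO and Scd1 in DKO stand below all WT points.

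Set against WT, the libraries labelled Trib1-KO had 6 of 10 members higher, none lower and 4 not called. The 6 were Acaca, Fasn, Me1, Thrsp, Scd1 and Elovl6, and in each of them 6 of 6 libraries were above the WT mean. Of all genes tested, 11.8% were called higher and 10.9% lower. The median log2 difference was 0.85 over the members and 7.7e-03 over all genes, and 7 of the 10 members had ranges that overlapped WT. The 3 that did not were Acaca, Me1 and Elovl6. Here and in the comparisons below, no share of all genes with separate ranges was computed, so overlap only describes the members. Totals free of Mup genes gave 9 members higher, adding Mlxipl, Acacb and Gpam, and quantile normalization gave 7, adding Mlxipl and Gpam and losing Scd1. Of all genes, 5167 were called higher and 988 lower with totals free of Mup genes. With quantile normalization 2175 were higher and 2413 lower.

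Libraries at the ends of both groups carried part of these sizes. WT B3 was the lowest WT library for 8 of 10 members, all but Acly and Gpam, and Mup genes took 2.93% of it against 6.12% to 8.73% in the other WT libraries. Trib1-KO D3 was the highest library of its group for 9 of 10 members, all but Mlxipl. Without B3 and D3 together, a choice made after seeing these values, Acaca was 0.77 above WT (limma adjusted p = 8.6e-05), Me1 1.08 (7.7e-04) and Elovl6 0.89 (1.4e-04). Scd1 was 0.83 above WT (limma adjusted p = 0.0071) and Fasn 0.41 (0.044), while Acly was called lower at -0.36 (0.036). 5 of the 6 calls were thus kept, at smaller sizes, and that of Thrsp was lost.

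In Cebpa-KO against WT, Fasn was the 1 member called lower, none was called higher and 9 were not called. At an unadjusted p under 0.05, limma had 4 lower and 0 higher, a threshold at which no share of all genes was computed. Of all genes tested, 4.60% were called higher and 5.22% lower, so a single call among 10 is close to that background. The median was -0.25 over the members and 8.9e-03 over all genes. Without B3 and D3, Mlxipl (-0.34, limma adjusted p = 0.045) and Elovl6 (-0.51, limma adjusted p = 0.028) were called lower as well. Leaving out single libraries also added calls: Mlxipl passed without WT B3 (limma adjusted p = 0.040) or E1 (limma adjusted p = 0.048), and Elovl6 without E3 (limma adjusted p = 0.049).

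In DKO against WT, 4 members were called lower (Mlxipl, Fasn, Me1 and Scd1), none higher and 6 were not called, against 2.84% of all genes higher and 3.25% lower. The median was -0.34 over the members and 3.2e-03 over all genes, and Fasn and Scd1 were the members whose ranges did not overlap WT. Only 2 members were called when WT A1, A3, B1 or B2 or DKO H3 was left out, and 6 without B3, which added Acacb (-0.47, limma adjusted p = 0.041) and Elovl6 (-0.68, limma adjusted p = 0.022).

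DKO and Cebpa-KO livers, both without Cebpa, differed in 1 member. Scd1 was 2.18-fold lower in DKO (log2 -1.12 ± 0.21, limma adjusted p = 0.017), with no overlap of the ranges. The other 9 were not called, and Acacb was nearest at -0.58 ± 0.16 (limma adjusted p = 0.18, or 0.043 without WT B3 and Trib1-KO D3). Of all genes, 0.0808% were called higher and 0.121% lower. The Scd1 call was lost in a fit of those groups alone (limma adjusted p = 0.099), without Cebpa-KO E1 (-1.09, limma adjusted p = 0.051) and without DKO G2 (-1.02, limma adjusted p = 0.064).

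In DKO against Trib1-KO, 9 of 10 members were called lower, all but Acly. Of all genes tested, 14.6% were called higher and 15.7% lower. With totals free of Mup genes all 10 members were called lower, beside 6329 of all genes lower and 1453 higher. As deposited, 3 of the 10 ranges overlapped, and no share over all genes was computed for overlap. The member median was -1.24, against -0.02 over all genes. Me1 was 4.74-fold lower (log2 -2.25 ± 0.24, limma adjusted p = 5.3e-08), Fasn 4.29-fold (-2.10 ± 0.18, limma adjusted p = 1.5e-09) and Scd1 4.16-fold (-2.06 ± 0.21, limma adjusted p = 2.3e-08). Elovl6 was 3.28-fold lower (-1.71 ± 0.18, limma adjusted p = 3.7e-08) and Thrsp 2.80-fold (-1.48 ± 0.35, limma adjusted p = 0.0019). Acaca (limma adjusted p = 5.7e-05), Acacb (-0.67), Mlxipl (-0.57) and Gpam (-0.43) completed the 9. Comparisons of this kind share groups with those above and are not independent of them.

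The interaction asks whether deleting Trib1 as labelled moved a gene differently with and without Cebpa, as DKO minus Cebpa-KO less Trib1-KO minus WT. It was called below 0 for 5 of 10 members, none above, against 6.35% of all genes above and 6.22% below. The 5 were Scd1 (-2.14 ± 0.30, limma adjusted p = 1.4e-05), Me1 (-1.87 ± 0.34, limma adjusted p = 4.2e-04), Elovl6 (-1.31 ± 0.25, limma adjusted p = 7.7e-04), Acaca (-1.27 ± 0.24, limma adjusted p = 7.1e-04) and Acacb (-0.93 ± 0.23, limma adjusted p = 0.0078). Thrsp (-1.24 ± 0.50, limma adjusted p = 0.11) and Fasn (-0.69 ± 0.26, limma adjusted p = 0.084) were not called. Fasn was called without WT B1 (-0.81, limma adjusted p = 0.031) or Trib1-KO D2 (-0.79, limma adjusted p = 0.039), and Thrsp without WT B1 (-1.49, limma adjusted p = 0.034). Totals free of Mup genes gave 8 calls, adding Mlxipl (-0.54), Fasn (-0.93) and Thrsp (-1.48). Over all genes those totals gave 626 calls above 0 and 2873 below. The member median was -1.08, against -9.1e-03 over all genes.

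**Figure D2:**
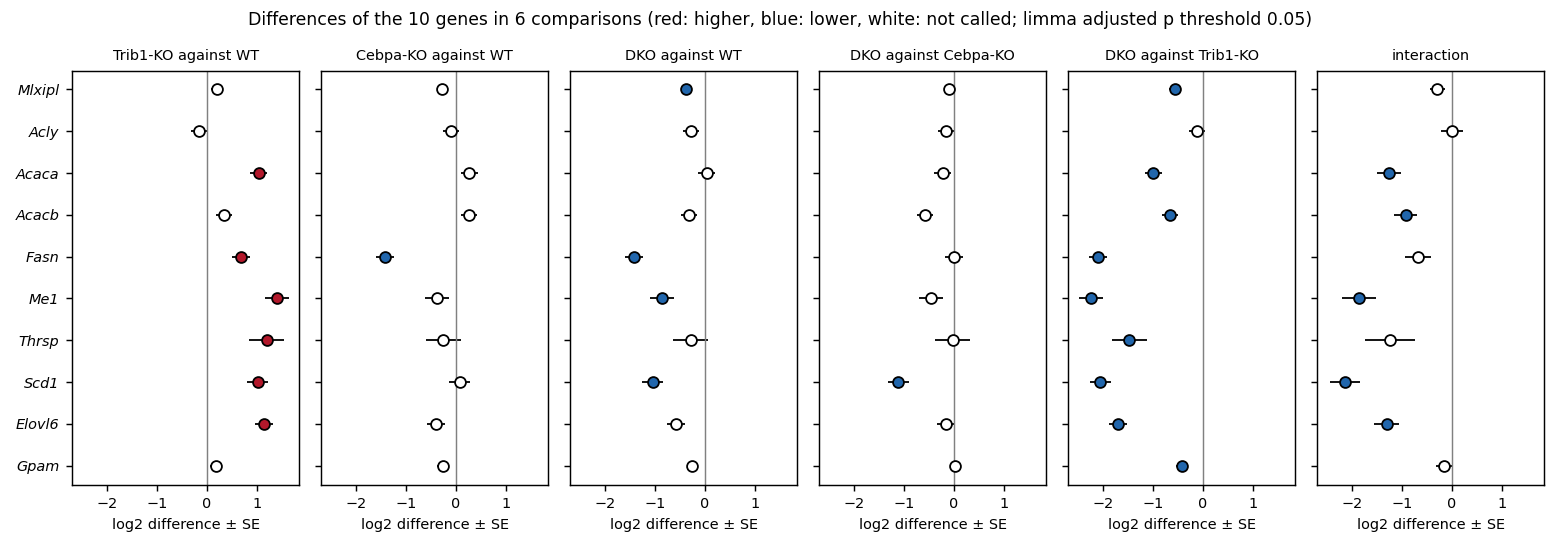
Log2 difference of each of the 10 genes in the 5 two-group comparisons and the interaction, with bars of 1 standard error from limma. Red and blue points were called higher and lower at an adjusted p under 0.05, and white points were not called. Me1, Thrsp, Elovl6, Acaca and Scd1 lie above 1 in Trib1-KO against WT, and Fasn lies near -1.4 in both Cebpa-deleted groups against WT.

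Levels of different genes were compared per kilobase of the longest coding transcript. In WT, Scd1 stood first at 36250 ± 7587 normalized counts per kb (SD, n = 6), and its lowest library (27138) was above the highest of any other member. Thrsp followed at 2987, then Mlxipl at 2049, Me1 at 1576, Acly at 1150, Gpam at 975 and Fasn at 785. Thrsp spanned 635 to 5846 per kb across WT mice and overlapped each of those 5. Elovl6 (254), Acaca (248) and Acacb (224) came last and overlapped each other but not Fasn, whose lowest WT value was 393 per kb. In Cebpa-KO, Fasn (284 per kb) stood among the lowest genes, between Acaca (300) and Acacb (263). The 10 genes together held 0.865% of normalized counts in WT, 1.65% in Trib1-KO, 0.905% in Cebpa-KO and 0.468% in DKO. Scd1 alone held 0.700%, 1.40%, 0.775% and 0.352% of them, so these shares mainly follow Scd1.

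Ratios within a library do not depend on scaling between libraries. 4 were compared in the 5 two-group comparisons by a two-sided exact permutation test of every split of the 6 and 6 libraries. It can give no p below 0.00216, and adjustment was over the 20 tests. Of these, 8 had an adjusted p under 0.05. Acacb relative to Acaca had a median of 0.800 in WT, 0.877 in Cebpa-KO, 0.669 in DKO and 0.521 in Trib1-KO. No library labelled Trib1-KO, with a highest ratio of 0.607, reached the lowest WT ratio of 0.620. The difference in log2 ratio was -0.69 (exact permutation p = 0.00216, adjusted 0.011). Acacb thus fell relative to Acaca.

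Thrsp relative to its paralog Mid1ip1 had a median of 5.50 in WT, 18.4 in Trib1-KO, 4.11 in Cebpa-KO and 3.38 in DKO. The Trib1-KO libraries lay above every other library. The difference from WT was 2.16 on the log2 scale and that of DKO from Trib1-KO was -2.49 (each with exact permutation p = 0.00216, adjusted 0.011). Mid1ip1 itself fell from 714 ± 112 in WT to 373 ± 89.0 in Trib1-KO (log2 -0.96 ± 0.15, limma adjusted p = 2.7e-05), so the paralogs moved in opposite directions. It was 634 ± 42.9 in Cebpa-KO and 747 ± 151 in DKO, and neither was called against WT.

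Scd1 relative to Elovl6, the desaturase against the elongase, differed in mean between the Cebpa-deleted groups. Its median was 117 in WT, 106 in Trib1-KO, 163 in Cebpa-KO and 82.1 in DKO. The Cebpa-KO ratio was above WT by 0.49 (exact permutation p = 0.0087, adjusted 0.025), and the DKO ratio differed from Cebpa-KO by -0.96 (exact permutation p = 0.0043, adjusted 0.014). The ranges overlapped in both comparisons.

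Mlxipl relative to Srebf1, the genes of the pathway's main transcription factors, had a median of 2.00 in WT, 4.02 in Trib1-KO, 2.51 in Cebpa-KO and 1.78 in DKO. The difference from WT was 0.84 in Trib1-KO (exact permutation p = 0.015, adjusted 0.038), and it ranged from 0.73 to 0.96 with single libraries left out. The adjusted p rose to between 0.065 and 0.070 without WT A1, A2, B1 or B3 or Trib1-KO C2, C3 or D3. The difference was -1.13 for DKO against Trib1-KO, with no overlap (exact permutation p = 0.00216, adjusted 0.011), and -0.46 for DKO against Cebpa-KO (exact permutation p = 0.0043, adjusted 0.014). Srebf1 was 3353 ± 820 in WT and 2163 ± 597 in Trib1-KO, where it fell (log2 -0.64 ± 0.17, limma adjusted p = 0.0065). With totals free of Mup genes that value was -0.40 (limma adjusted p = 0.081). Srebf1 was 2444 ± 445 in Cebpa-KO and 3123 ± 470 in DKO, neither called against WT.

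**Figure D3:**
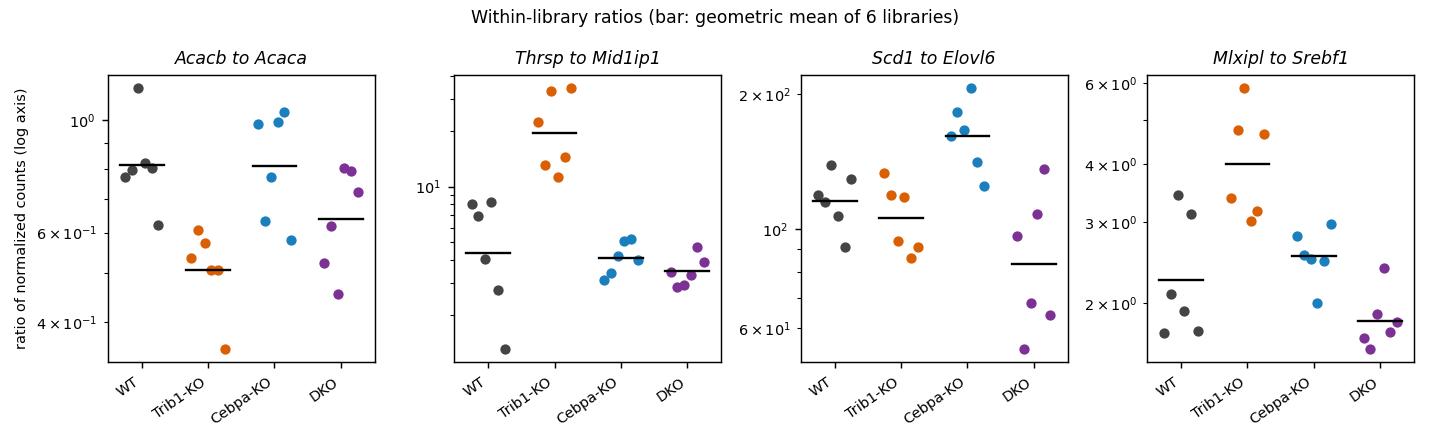
The 4 within-library ratios in every library (log scale), by group, with a bar at the geometric mean of 6 libraries. Thrsp to Mid1ip1 in the libraries labelled Trib1-KO lies above every other library, and Acacb to Acaca in those libraries lies below every WT library.

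Genes around the pathway were read from 6 lists, whose counts stand beside 11.8% of all genes higher and 10.9% lower in Trib1-KO against WT, 4.60% and 5.22% in Cebpa-KO, and 2.84% and 3.25% in DKO. In citrate, acetyl-CoA and NADPH supply, 8 of 15 genes were higher and 1 lower in Trib1-KO against WT (median 0.28). These included 2 pentose phosphate genes whose enzymes form NADPH, as Me1 does: G6pdx (1.87 ± 0.25, limma adjusted p = 2.9e-06) and Pgd (1.22 ± 0.10, limma adjusted p = 1.1e-09). Tkt (0.65 ± 0.09, limma adjusted p = 3.3e-06) and Taldo1 (0.56 ± 0.07, limma adjusted p = 9.4e-07), of the same pathway but not themselves forming NADPH, were higher too. In Cebpa-KO against WT the list had 0 higher and 3 lower of 15 (median -0.10), which were Me3 (-0.92), Mpc2 (-0.38) and citrate synthase Cs (-0.29 ± 0.07, limma adjusted p = 0.0046). In DKO it had 0 higher and 3 lower (median -0.13), among them the acetate-activating Acss2 (-0.67, limma adjusted p = 0.023).

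Of 12 genes of glycolysis, fructolysis and other known ChREBP targets, 6 were higher and 1 lower in Trib1-KO against WT (median 0.42), or 4 and 2 without WT B3 and Trib1-KO D3. Pnpla3, a lipid droplet protein gene, rose from 2.39 in WT to 157 (log2 5.55 ± 0.77, limma adjusted p = 5.9e-06). The hormone gene Fgf21 rose by 2.30 ± 0.41 and fructokinase Khk by 0.53 ± 0.12 (limma adjusted p = 0.0025). In Cebpa-KO 1 was higher and 4 lower (median 0.12), with Fgf21 at -1.79 ± 0.41 (limma adjusted p = 0.0048) and the glucose transporter Slc2a2 the one higher, at 0.56. In DKO 0 were higher and 2 lower (median 0.03), Fgf21 among them.

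Of 14 other desaturase and elongation genes, 6 were higher and 3 lower in Trib1-KO against WT (median 0.08), or 4 and 3 without WT B3 and Trib1-KO D3 and 6 and 1 with totals free of Mup genes. Elovl7 rose by 3.92 ± 0.38 (limma adjusted p = 2.0e-08) and the desaturase gene Scd2 by 0.96 ± 0.13 (limma adjusted p = 6.0e-06). The polyunsaturated fatty acid desaturase gene Fads1 fell (-1.04 ± 0.12, limma adjusted p = 2.5e-07). In Cebpa-KO 0 were higher and 6 lower (median -0.28), led by the elongase genes Elovl3 (-2.20 ± 0.22, limma adjusted p = 2.0e-07) and Elovl5 (-1.36 ± 0.22, limma adjusted p = 1.4e-04). In DKO 0 were higher and 3 lower (median -0.33), with Elovl5 at -1.76 and Elovl3 at -1.62.

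Of 14 glycerolipid assembly genes beyond Gpam, 5 were higher and 2 lower in Trib1-KO against WT (median 0.13), or 9 and 0 with totals free of Mup genes (median 0.37). The acyltransferase gene Gpat3 rose by 1.57 ± 0.24 (limma adjusted p = 2.5e-05) and Dgat2, which completes triglyceride, by 0.58 ± 0.12 (limma adjusted p = 7.1e-04). In Cebpa-KO 0 were higher and 2 lower (median -0.13), Agpat2 (-0.73 ± 0.09, limma adjusted p = 1.9e-06) and Gpat3 (-1.47 ± 0.24, limma adjusted p = 1.9e-04). The same 2 genes were the ones called lower in DKO (median -0.12).

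Of 16 transcription factors and regulators, 4 were higher and 6 lower in Trib1-KO against WT (median -0.19), or 5 and 4 with totals free of Mup genes (median 0.05). Insig2, which holds SREBP in the endoplasmic reticulum, rose by 1.40 ± 0.16 (limma adjusted p = 4.0e-07) and Mlx, the partner of ChREBP, by 0.53 ± 0.08 (limma adjusted p = 1.3e-05). Insig1 fell (-0.85 ± 0.11, limma adjusted p = 3.5e-06), as did the coactivator gene Ppargc1b (-1.22 ± 0.16, limma adjusted p = 2.9e-06). Insig2 was lower in Cebpa-KO (-2.09 ± 0.16, limma adjusted p = 2.9e-09) and DKO (-1.79), where 1 and 0 of the list were higher and 3 and 2 lower (medians -0.11 and -0.03).

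Of 15 genes of insulin, AMPK and malonyl-CoA control, 2 were higher and 3 lower in Trib1-KO against WT (median 0.06), but 7 and 0 with totals free of Mup genes. The AMPK subunit gene Prkab2 rose by 0.87 and Trib3, a relative of Trib1, by 0.64 ± 0.18 (limma adjusted p = 0.012). Without WT B3 and Trib1-KO D3 the list had 0 higher and 3 lower, with Prkab2 at 0.67 (limma adjusted p = 0.087) and Trib3 at 0.55 (limma adjusted p = 0.061). The list had 1 higher and 0 lower in Cebpa-KO (median 0.05) and 0 higher and 1 lower in DKO (median 4.2e-03), the latter being Trib3 at -0.66. In DKO against Cebpa-KO, limma called 0 of the 86 genes of these 6 lists, where 7 were higher and 5 lower at an unadjusted p under 0.05. No share of all genes was computed at that unadjusted threshold.

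**Figure D4:**
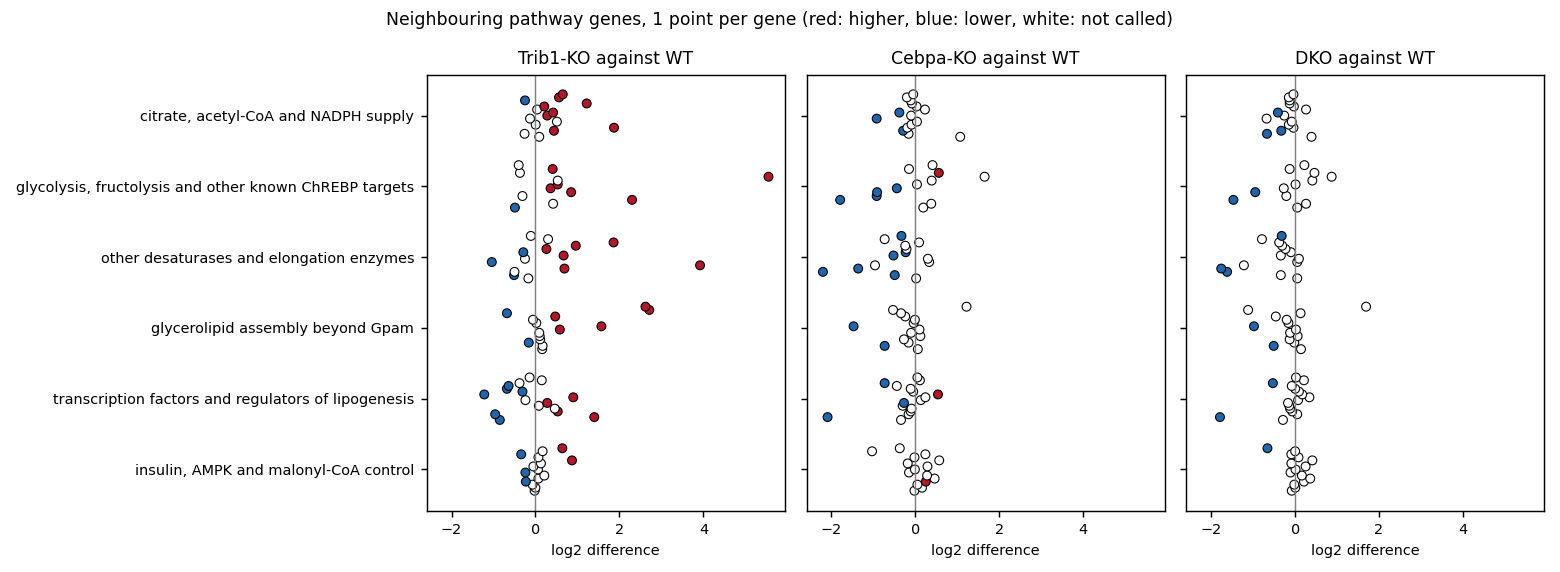
Log2 difference of every gene of the 6 surrounding lists against WT, with a panel for each of the other 3 groups by label, 1 point per gene, red where called higher, blue where called lower and white where not called. In the citrate and NADPH supply row, 8 of the 9 called points in Trib1-KO lie above 0, while all called points in Cebpa-KO and DKO lie below it.

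Markers of the cells in whole liver moved as well. Their counts stand beside 11.8% of all genes called higher and 10.9% lower in Trib1-KO against WT. Those shares were 4.60% and 5.22% in Cebpa-KO against WT, and 2.84% and 3.25% in DKO against WT. The summed level of 8 hepatocyte markers was 746548 to 869059 in the libraries labelled Trib1-KO, against 1773590 to 2466844 in WT, 2419490 to 3206980 in Cebpa-KO and 2331494 to 2752972 in DKO. Albumin (Alb) alone was 356731 ± 57778 (SD, n = 6) in Trib1-KO and 1451667 ± 277014 in WT, and 5 of the 8 markers, all genes of secreted plasma proteins, were called lower in Trib1-KO and 0 higher. Hnf4a (-0.02, limma adjusted p = 0.93), Cps1 (-0.05, limma adjusted p = 0.89) and Apoc3 (0.09, limma adjusted p = 0.52) of the same list were not called. Apoc3 also encodes a secreted plasma protein. It was called higher with totals free of Mup genes (0.34, limma adjusted p = 0.0052) and with quantile normalization (0.39, limma adjusted p = 0.0012). Alb held most of the hepatocyte sum in WT, Cebpa-KO and DKO. In Cebpa-KO against WT the list was split, with a median of -0.13. Alb (0.67) and Ttr (0.45) were called higher, Cps1 (-0.92) and Apoc3 (-0.34) lower, and 4 were not called. In DKO against WT 1 was called higher and 2 lower (median -0.01). The sum of 8 Kupffer cell and macrophage markers was 11488 to 14871 in Trib1-KO, 6103 to 11523 in WT, 7822 to 11072 in Cebpa-KO and 7147 to 11379 in DKO, with 6 of 8 called higher in Trib1-KO against WT. In Trib1-KO against WT, 3 of 6 sinusoidal endothelial and 2 of 6 stellate markers were called higher, and 2 of 6 cholangiocyte markers lower. The cholangiocyte sum was 205 to 293 in WT, 153 to 210 in Trib1-KO, 112 to 166 in Cebpa-KO and 95.2 to 134 in DKO. In Cebpa-KO, Sox9 (34.8 against 132 in WT) was the 1 cholangiocyte marker called lower, and 5 were not called. Among those 5, Krt19 was 28.5 against 30.9 in WT and Krt7 18.4 against 20.5. In DKO 2 of 6 were called lower. The lymphocyte sum was 285 to 491 in WT, 178 to 288 in Trib1-KO, 419 to 1556 in Cebpa-KO and 274 to 425 in DKO. Most of it was Ighm, with means of 307 in WT and 160 in Trib1-KO. In Trib1-KO against WT the called markers went both ways. Ighm was lower (-0.94, limma adjusted p = 0.0088) and Nkg7 higher (1.32, limma adjusted p = 0.013), and 4 of 6 were not called. In Cebpa-KO, Ighm (866 against 307 in WT) was the 1 lymphocyte marker called higher, and 5 were not called. The part of these cells in the lipogenic differences was not tested. Fat tissue also expresses these pathway genes, and of the adipocyte markers Lep was at 0 in every library, Adipoq at most 3.42 and Plin1 at most 5.36. The sum of the 8 adipocyte markers ran from 24409 to 61613 in WT and from 31650 to 48066 in Trib1-KO, nearly all of it Car3, which liver expresses too. Of the 4 adipocyte markers tested, 2 were called higher in Trib1-KO against WT: Retn, at 11.7 ± 3.65 against 1.12 ± 0.932, and Adrb3, at 457 ± 145 against 179 ± 16.4. The other 2 were not called: Car3 (-0.04, limma adjusted p = 0.94) and Cfd (0.31, limma adjusted p = 0.85). Adrb3 was called lower against WT in Cebpa-KO (log2 -4.04) and in DKO (log2 -2.69), where the other 3 tested were not called. The adipocyte sum ran from 17815 to 52608 in Cebpa-KO and from 16661 to 38176 in DKO.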

How the data were processed

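RNA of whole liver from 24 mice was sequenced after stranded poly(A) library preparation, per the labels' protocols. Transcripts were quantified with Salmon against GRCm38.p6 and DESeq2 was used, per the submitters' processing notes. Versions, and whether strand was used, are not given in the sources used here. The deposited values are a signal per gene: estimated counts that the authors appear to have divided by a size factor per library, since all 24 columns share 1 median log ratio over the 15112 genes above 0 in every library. Between 61.4% and 65.0% of low values fell within 0.02 of whole steps, so read counts could not be recovered and no count test was run. From the step sizes, 18623768 to 34297056 estimated reads lie behind a library, and 19831 to 21189 genes were above 0.

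From these values limma 3.58.1 (R 4.3.3) was fitted with a trend to log2(value + 1) of 19810 genes with a mean of at least 1, with 1 coefficient per group over all 24 libraries. A log2 difference with this pseudocount understates changes of low genes. All 10 members passed the minimum. Groups were read from the column names, and replicates are separate mice per the labels. Ratios were tested by exact permutation. Tables and figures were made with Python 3.11.15, pandas 2.3.3, numpy 2.4.6 and matplotlib 3.10.9. The limma script was tested on simulated data. GENCODE M21 matched 99.3% of gene identifiers. Up to 4 called genes per list and comparison were named by smallest adjusted p, with all members and Srebf1, Mid1ip1, Trib1 and Cebpa always given. Some genes that this rule names are not reported here. The members and lists were chosen with earlier results of these data known. Alternatives were pseudocounts of 0.5 and 5, a mean of at least 10 or any value above 0, totals without Mup genes, quantile normalization, array weights, a fit of the compared groups alone, and leaving out each library. The column letter as a term, and leaving out WT B3 and Trib1-KO D3 together, were added after seeing the data.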

Additional observations from a re-analysis of the deposited data

Results flagged for a closer look

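In each group of 6 libraries, the gap between the highest or lowest library and its neighbour was set against the group's range, and a share above Dixon's critical value stands apart. Chance flags about 1 in 20 groups of independent, normally distributed values. The 40 checks shared libraries and used values without a log, so that rate is only a rough guide. Of the 40 checks, 5 were flagged. In 4 of these the library was Trib1-KO D3, the highest of its group: Acly (0.722), Acaca (0.715), Elovl6 (0.722) and Gpam (0.688). The other was Me1 in DKO, where H3 was the lowest library (0.756), at 1347 against 3025 to 3567 in the rest of the group. The interaction differed from 0 by limma for 5 members. The log2 values were -2.14 for Scd1, -1.87 for Me1, -1.31 for Elovl6, -1.27 for Acaca and -0.93 for Acacb, each with the Trib1-KO difference from WT above the DKO difference from Cebpa-KO. The hepatocyte marker sum was lower in every library labelled Trib1-KO than in any other library, and its part in these values was not tested.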

How the results depend on the processing

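No result reversed its called direction under the alternatives run. With 1 library left out in turn, 813 of 840 member differences and 232 of 240 ratios kept direction and side of the threshold. Under the other alternatives 561 of 590 member differences and 20 of 20 ratios did. With single libraries left out, the members called lower numbered 0 to 1 in Trib1-KO against WT (0 with all libraries), 1 to 2 in Cebpa-KO against WT (1), 2 to 6 in DKO against WT (4) and 0 to 1 in DKO against Cebpa-KO (1). Without WT B3 and Trib1-KO D3 together, an alternative added after seeing the data, they numbered 1 in Trib1-KO against WT, 3 in Cebpa-KO against WT, 6 in DKO against WT and 2 in DKO against Cebpa-KO. A term for the first or second column letter, also added later, changed no member call. Members called higher in Trib1-KO against WT numbered 9 with totals without Mup genes and 7 with quantile normalization, in place of 6. Testing all genes with any value above 0 left 2 in DKO against WT, and a fit of the compared groups alone left 0 in DKO against Cebpa-KO. Totals without Mup genes gave 8 in the interaction in place of 5. With single libraries left out, the log2 ratio of Scd1 to Elovl6 in DKO against WT ranged from -0.61 to -0.34, and that of Mlxipl to Srebf1 in Trib1-KO against WT from 0.73 to 0.96. Over all genes, DKO against Cebpa-KO had 16 higher and 24 lower calls, but 4 and 14 in a fit of those groups alone (22.2% of calls higher, against 40.0%) and 8 and 17 with all genes tested. DKO against WT had 563 and 643, but 378 and 415 in a fit of those groups alone. Trib1-KO against WT had 2330 and 2168, but 5167 and 988 with totals without Mup genes. DKO against Trib1-KO moved from 2901 and 3105 to 1453 and 6329 with those totals, and the interaction from 1257 and 1233 to 626 and 2873. The cause of these changes was not tested. No paired analysis was possible because no label says what the letters and numbers in the column names stand for. Depth is known only as an estimate, so differences among genes near the minimum mean of 1 were not detectable with confidence.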

Other observations

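Among 9518 genes with a mean of at least 100 over the 24 libraries, those whose log2 levels followed each member most closely were read as a description, since all points share libraries and group structure. Elovl6 was most like Taldo1 (Pearson r = 0.96) and Pgd (0.94), both of the pentose phosphate pathway. Me1 was most like the citrate synthase gene Cs (0.94) and Aldh2 (0.93), and Acly most like Idh1 (0.78) and Acss2 (0.74). Thrsp was most like Khk (0.90) and Dgat2 (0.87), and Scd1 most like the acyl-CoA synthetase gene Acsl5 (0.88) and Ces2e (0.86). Fasn was most like Slc17a8 (0.96) and Mgst1 (0.95), Acaca like Zfp704 (0.89) and Gbe1 (0.88), and Acacb like Ugt1a5 (0.81) and Ptbp1 (0.73). Gpam was most like Sec24a (0.83) and Lpin2 (0.82), and Mlxipl like Pdilt (0.86) and Mup17 (0.85).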
